A study of Mus musculus with 6 samples.

Results

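Transcripts of the insulin-like growth factor (IGF) family, which comprises secreted ligands, their receptors and the binding proteins (IGFBPs) that hold the ligands outside cells, were examined in synovial fibroblasts (SFs) of arthritic mice treated with amisulpride. The family was taken as 10 named genes, namely the ligands Igf1 and Igf2, the receptors Igf1r and Igf2r, and the binding proteins Igfbp2, Igfbp3, Igfbp4, Igfbp5, Igfbp6 and Igfbp7, out of 49548 genes in the deposited table. SFs are connective tissue cells of the joint lining. Here they were grown from the ankles of mice aged 8 weeks, on a CBA C57BL/6J background, that carry a human TNF transgene (hTNFtg) and develop polyarthritis. All 6 libraries are hTNFtg. Of these, 3 were left without treatment according to the labels (the methods of the study speak of vehicle) and 3 received 500 μM amisulpride, a blocker of dopamine and serotonin receptors, for 48 hours. The cells were cultured, and CD45+ leukocytes were depleted at passage 1, so the libraries describe cultured cells and no wild-type group was compared here.

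Igfbp6 was the 1 member that passed the thresholds of the study, a log2 fold change of 1 or more in either direction together with an unadjusted p under 0.05, and it was higher in treated SFs by 2.27-fold (95% interval 1.49 to 3.44). Igf1 was 1.67-fold higher (1.02 to 2.73), short of the fold threshold. The other 7 members with a test did not pass, and Igf2 was too low to be tested. Igfbp4 had the highest normalised count of the members in every library, although per kilobase of gene model Igfbp2 exceeded it in untreated replicate 1. Igfbp2, Igfbp5 and Igfbp7 spread widely within a group, with 3.37- to 5.24-fold between the highest and the lowest untreated library. Igfbp3 spread 6.25-fold among the treated libraries.

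IGF1 and IGF2 act through the receptor tyrosine kinase IGF1R, which signals to the PI3K and AKT kinases and to ERK, whereas IGF2R binds IGF2 and carries it to lysosomes. IGFBPs bind the ligands with high affinity, prolong their stay in tissue fluid and either block or present them to the receptor, and proteases that cut IGFBPs release the ligand. Fibroblasts of connective tissue are a known source of IGF1 and of several IGFBPs.

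Libraries were made from transcript 3′ ends, and the values are normalised counts, that is reads per gene scaled between libraries by the authors. Total normalised counts were 3832980 to 4504242 per library, which corresponds to approximately 2.52 to 4.71 M reads. For untreated replicate 1 the estimate, 4.08 M reads, is less certain. Amisulpride replicate 3 stood apart on the leading principal component of all tested genes, at 73.9 against -38.2 to 10.4, and was the shallowest library. All 12 fibroblast markers examined were above the filter, with summed levels of 33775 to 54145 normalised counts in untreated and 47511 to 79019 in treated SFs. Of the 12, 0 passed the study thresholds. Col1a1, Col1a2 and Col3a1 made up most of each sum and were higher in each replicate number (16.9% of all tested genes). Pdpn was lower in each number (17.8%). Prg4 was lower without overlap (8.66%), at 915, 859 and 733 in untreated and 426, 304 and 653 in treated SFs. The 10 myeloid markers summed to 2161 to 3916 in untreated and 1960 to 3923 in treated SFs. Of them, Ptprc was at 5 to 38 and Lyz2 at 1394 to 3287. Csf1r and Cd14, 2 of the 10, passed the study thresholds as lower, as did 3.01% of all tested genes. Csf1r had 114, 93 and 76 normalised counts in untreated and 41, 23 and 100 in treated SFs, so its groups overlapped. Adgre1 went the other way in each replicate number, with 39, 25 and 14 in untreated and 59, 43 and 32 in treated SFs, and did not pass. The 6 endothelial markers summed to 2 to 17, and Cdh5 was listed at 0 in every library. The 4 mural markers summed to 202 to 223 in untreated and 113 to 152 in treated SFs. Among these 4, Mcam passed the study thresholds as lower (3.01% of all tested genes), from 112, 122 and 184 in untreated to 53, 47 and 57 in treated SFs. Cspg4 overlapped between groups, at 76, 83 and 31 in untreated and 60, 55 and 93 in treated SFs. The 4 osteoblast markers summed to 24 to 70 in untreated and 8 to 17 in treated SFs. Alpl passed as lower, at 63, 21 and 28 normalised counts in untreated and 8, 4 and 5 in treated SFs. It met the filter only through the untreated libraries, where it is high, so its call is no support. The other osteoblast markers stood at 0 to 6. The 5 chondrocyte markers summed to 590 to 1263 and 815 to 1612, and the 5 muscle markers to 16 to 53 and 24 to 35, with none past the study thresholds. The part of other cell types in the results was not tested.

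The ligand Igf1 (ENSMUSG00000020053, chromosome 10, 87858265 to 87937042, plus strand, mm10) had 351, 210 and 192 normalised counts in untreated replicates 1, 2 and 3 and 573, 286 and 404 in treated replicates 1, 2 and 3. Each treated library lay above its counterpart, the untreated library of the same number, although the labels do not say that these are paired. Even so the groups overlapped, since treated replicate 2 was below untreated replicate 1. The means were 251 ± 87.1 and 421 ± 144 normalised counts (SD, n = 3). The difference in Igf1 was 0.74 ± 0.32 (SE) on the log2 scale, with an unadjusted limma p of 0.0422 and an adjusted p of 0.436. With the replicate number as a block the unadjusted p was 0.0103 and the adjusted p 0.163. Without untreated replicate 1 the log2 fold change was 1.01 and passed the study thresholds, and without amisulpride replicate 1 it was 0.49 with an unadjusted limma p of 0.181. Myeloid cells also make Igf1. The libraries numbered 1 held the highest Igf1 of each group and also the highest summed myeloid markers, 3916 and 3923 normalised counts, against 1960 to 2647 in the other 4. The part of myeloid transcripts in the Igf1 difference was not tested.

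Igf2 (ENSMUSG00000048583, chromosome 7, 142650766 to 142666816, minus strand), the ligand that dominates fetal growth and is expressed from the paternal allele, was near the detection limit. It stood at 1, 7 and 3 normalised counts in untreated and 22, 7 and 5 in treated SFs. Of these 6 values, 2 did not exceed 3 reads, the limit that a count of 0 still allows. That limit equals 2.50 to 5.36 normalised counts depending on the library and covers counting error only. The value of 22 stood alone. Igf2 did not reach 10 in 3 libraries, so it was not tested, and without any filter its log2 fold change of 1.37 ± 0.76 (SE) had an unadjusted limma p of 0.0944. Ins1 and Ins2, the insulin genes, were listed at 0 in all libraries.

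The receptor Igf1r (ENSMUSG00000005533, chromosome 7, 67952827 to 68233668, plus strand) had 228, 190 and 347 normalised counts in untreated and 297, 210 and 451 in treated SFs. Treated values were higher in each replicate number, by 0.14 to 0.38 on the log2 scale, and the groups overlapped. On the log2 scale the difference was 0.30 ± 0.33 (SE). The adjusted p was 0.784, and the 95% interval of -0.42 to 1.02 includes both no change and a doubling. It was 0.02 without amisulpride replicate 3. Igf2r (ENSMUSG00000023830, chromosome 17, 12682406 to 12769664, minus strand), the receptor that clears IGF2 and sorts lysosomal enzymes, had 289, 489 and 727 normalised counts in untreated and 388, 485 and 508 in treated SFs. Its treated values all lay inside the untreated range. Its log2 fold change was -0.03 ± 0.32 (SE), with a 95% interval of -0.75 to 0.68. The antisense gene Airn overlaps Igf2r over 28354 bases and held 2 to 20 normalised counts, and whether strand was used in counting is not given in the sources used here.

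**Figure D1:**
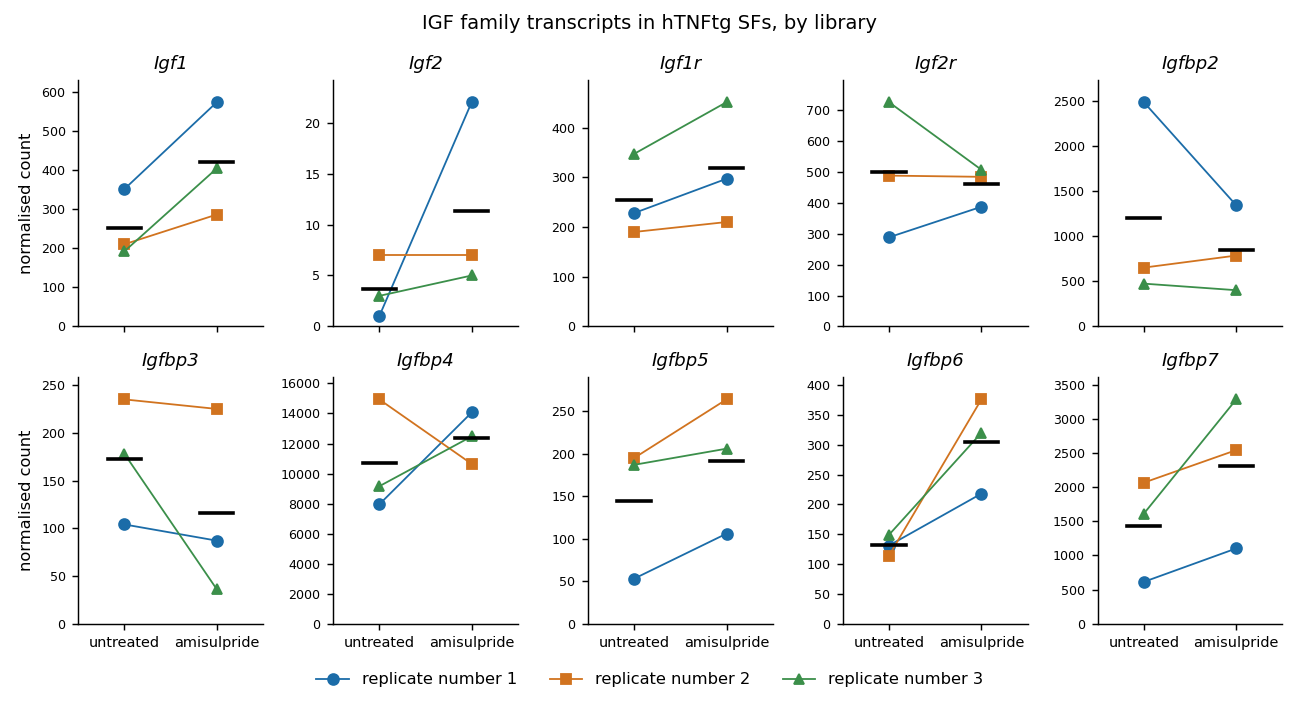
Normalised counts (vertical axis, from 0, a separate scale for each gene) of the 10 IGF family genes in 3 untreated and 3 amisulpride-treated libraries. Each line joins the libraries with the same replicate number and black bars are group means; Igfbp6 is the 1 gene whose treated values, 218 to 376, all lie above the untreated values, 114 to 149.

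Windows around the transcription starts of the members with the lowest p (Igfbp6 and Igf1) and the highest level (Igfbp4 and Igfbp7) are shown so that the genes can be told apart at the sequence level. They run from 250 bases before to 50 after a RefSeq start (GRCm38.p6, which is the mm10 build), 5′ to 3′ on the strand of the gene. A RefSeq start need not be the start of the deposited gene. The Igfbp6 window ends before the deposited start at 102144362. That of Igf1 lies inside the gene, which starts at 87858265. These 2 windows therefore do not hold the start of the gene as deposited. Capitals mark matches on either strand to 5 short motifs. These are the TATA box TATAAA, the CCAAT box CCAAT, the GC box GGGCGG, the AP-1-like TGANTCA and the FOXO site GTAAACA. In TGANTCA the N stands for any base, so a match is not always an AP-1 site.
Igfbp6, chr15:102143936-102144235, plus strand: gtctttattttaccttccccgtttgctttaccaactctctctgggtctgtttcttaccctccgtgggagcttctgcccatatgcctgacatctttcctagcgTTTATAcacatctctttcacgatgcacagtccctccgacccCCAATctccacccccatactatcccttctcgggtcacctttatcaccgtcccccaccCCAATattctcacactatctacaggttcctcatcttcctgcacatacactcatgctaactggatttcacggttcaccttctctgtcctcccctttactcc
Igf1, chr10:87860861-87861160, plus strand: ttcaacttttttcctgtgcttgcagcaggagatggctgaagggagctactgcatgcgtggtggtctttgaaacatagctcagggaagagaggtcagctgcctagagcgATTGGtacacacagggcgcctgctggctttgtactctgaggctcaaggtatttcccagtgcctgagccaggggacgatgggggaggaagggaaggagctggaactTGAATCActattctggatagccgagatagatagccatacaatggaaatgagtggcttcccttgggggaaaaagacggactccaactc
Igfbp4, chr11:99040994-99041293, plus strand: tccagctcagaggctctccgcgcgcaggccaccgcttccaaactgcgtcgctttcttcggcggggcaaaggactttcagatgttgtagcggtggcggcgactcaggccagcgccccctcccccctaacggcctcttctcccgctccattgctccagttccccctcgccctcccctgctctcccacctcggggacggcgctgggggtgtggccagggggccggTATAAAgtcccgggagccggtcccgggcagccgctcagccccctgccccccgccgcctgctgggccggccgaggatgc
Igfbp7, chr5:77407996-77408295, minus strand: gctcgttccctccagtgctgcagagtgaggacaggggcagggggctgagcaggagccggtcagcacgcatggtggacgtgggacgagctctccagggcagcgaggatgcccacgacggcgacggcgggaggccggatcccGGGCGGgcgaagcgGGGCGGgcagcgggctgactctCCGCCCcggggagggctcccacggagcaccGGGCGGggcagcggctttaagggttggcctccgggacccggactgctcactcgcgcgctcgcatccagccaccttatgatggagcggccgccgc

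The window of Igfbp6 held 2 CCAAT matches and 1 TATAAA match, with 8 CpG sites in 49.7% GC. Igf1 held 1 CCAAT and 1 TGANTCA match, Igfbp4 held 1 TATAAA match, and Igfbp7 held 4 GGGCGG matches with 33 CpG sites in 73.3% GC. Among 32851 windows of the same length over all genes, 13.6% held TATAAA, 37.4% CCAAT, 35.7% GGGCGG, 7.81% TGANTCA and 3.65% GTAAACA. All 10 members had a window, 14 in all, and none of the 14 held GTAAACA. A match describes the letters and not a bound site.

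Igfbp6 (ENSMUSG00000023046, chromosome 15, 102144362 to 102149511, plus strand) encodes a binding protein that prefers IGF2 to IGF1. It had 131, 114 and 149 normalised counts in untreated and 218, 376 and 320 in treated SFs. The groups did not overlap, and the untreated libraries were close to each other. The means were 131 ± 17.5 and 305 ± 80.1 (SD, n = 3). The log2 fold change of 1.18 ± 0.27 (SE) had an unadjusted limma p of 0.00119. The adjusted p was 0.107, which does not pass 0.05 over all genes, and it was 0.0317 with the replicate block. Across the alternatives the adjusted p ranged from 0.0317 to 0.362, and the log2 fold change stayed between 1.01 and 1.40, past the study thresholds in each. The ligand that this protein prefers, Igf2, was at 1 to 22 normalised counts in the same libraries.

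Igfbp4 (ENSMUSG00000017493, chromosome 11, 99041244 to 99054392, plus strand), an inhibitory binding protein that the protease PAPP-A cuts, had 7943, 14937 and 9152 normalised counts in untreated and 14067, 10641 and 12474 in treated SFs. The groups overlapped, and replicate number 2 moved opposite to the others, by -0.49 against 0.82 and 0.45 on the log2 scale. The difference of 0.26 ± 0.32 (SE) on the log2 scale had an adjusted p of 0.805. Its 95% interval of -0.44 to 0.96 excludes a doubling and a halving of the transcript under this model. The replicate block left the SE at 0.33.

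Igfbp7 (ENSMUSG00000036256, chromosome 5, 77349240 to 77408041, minus strand), a matrix-associated protein with low affinity for IGFs, had 613, 2067 and 1612 normalised counts in untreated and 1103, 2544 and 3287 in treated SFs. Every treated library was above its untreated counterpart, by 0.30 to 1.03 on the log2 scale, but treated replicate 1 was below 2 of the untreated libraries. The mean difference of 0.72 ± 0.48 (SE) on the log2 scale had an adjusted p of 0.63. With the replicate block the SE was 0.26, the unadjusted limma p 0.0138 and the adjusted p 0.189. Without amisulpride replicate 1 the log2 fold change was 1.19 and passed the study thresholds, and without untreated replicate 1 it was 0.20. Igfbp7 is a known endothelial transcript. The summed endothelial markers were 11, 14 and 4 in untreated and 17, 2 and 2 in treated SFs, of which Tek reached 12 and Emcn 10 in 1 library each, and their part in the Igfbp7 difference was not tested. It overlaps Polr2b on the other strand over 85 bases.

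Igfbp5 (ENSMUSG00000026185, chromosome 1, 72857932 to 72874884, minus strand), a conserved binding protein that attaches to matrix, had 53, 195 and 187 normalised counts in untreated and 106, 264 and 206 in treated SFs. Values were higher in all 3 treated libraries than in their counterparts, by 0.14 to 0.99 on the log2 scale. This gave 0.52 ± 0.49 (SE) on the log2 scale, and the adjusted p was 0.744, or 0.405 with the replicate block. Without untreated replicate 1 it was -0.09, so its sign rested on that library.

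Igfbp2 (ENSMUSG00000039323, chromosome 1, 72824503 to 72852474, plus strand), which carries a cell-binding motif for integrins, lies 5457 bases from Igfbp5 and points toward it. It had 2492, 654 and 476 normalised counts in untreated and 1346, 788 and 403 in treated SFs. Untreated replicate 1 was 5.24 times untreated replicate 3, and the order of the replicate numbers was the same in both groups. Amisulpride SFs differed by -0.29 ± 0.57 (SE) on the log2 scale, and the adjusted p was 0.886. It changed sign to 0.43 without untreated replicate 1 and to 0.16 without amisulpride replicate 3.

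Igfbp3 (ENSMUSG00000020427, chromosome 11, 7206086 to 7213923, minus strand), the main carrier of IGFs in blood, had 104, 235 and 178 normalised counts in untreated and 87, 225 and 36 in treated SFs. It was lower in each treated library than in its counterpart, by 0.25 and 0.06 in numbers 1 and 2 and 2.27 in number 3 on the log2 scale. The mean difference was -0.86 ± 0.55 (SE) on the log2 scale, with an unadjusted limma p of 0.142 and an adjusted p of 0.611. With the replicate block these were 0.03 and 0.272. It was -0.22 without amisulpride replicate 3, the library that stood apart, and -1.53, past the study thresholds, without amisulpride replicate 2. Igfbp1, which lies 3539 bases from Igfbp3 on the other strand and is chiefly a liver gene, was at 0 in 5 libraries and 4 in amisulpride replicate 3.

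**Figure D2:**
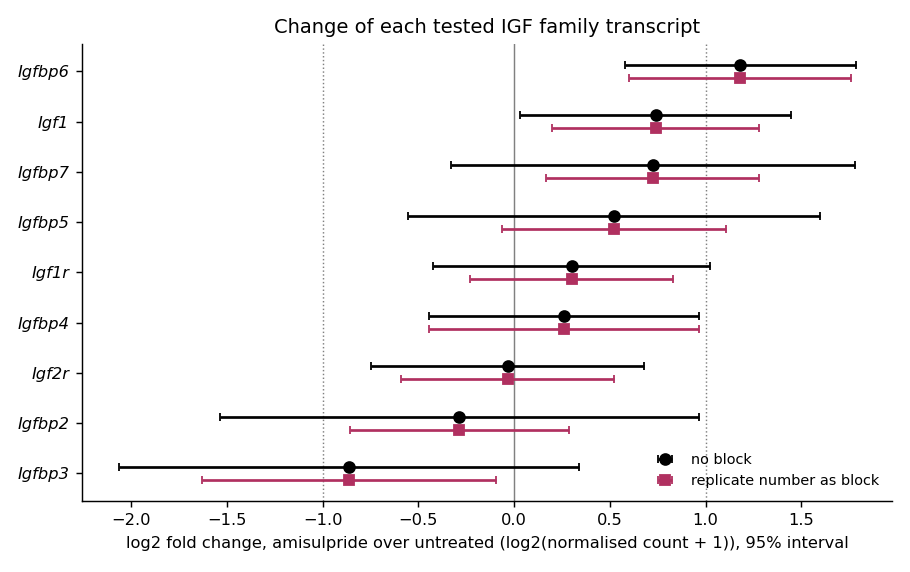
Log2 fold change of amisulpride-treated over untreated SFs (horizontal axis) for the 9 tested genes, with 95% intervals from limma without a block (black circles) and with the replicate number as a block (red squares). The interval of Igfbp6 runs from 0.58 to 1.78 and that of Igfbp2 from -1.54 to 0.97 without the block, and the block narrows the interval of Igfbp2 to -0.86 to 0.29.

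Counted together, 1 of 9 tested members passed the study thresholds (11.1%), against 5.70% of all 12614 tested genes. Of all genes, 2.69% passed as higher and 3.01% as lower. With the replicate block the same member passed, against 6.61% of all genes. At an adjusted limma p under 0.05 there were 0 members (0.285% of all genes), and 2, Igf1 and Igfbp6, had an unadjusted p under 0.05 (10.9% of all genes). Both were higher in treated SFs, as were 5.11% of all genes at that p, with 5.77% lower. The replicate block gave 1 member at an adjusted p under 0.05, Igfbp6 (2.08% of all genes), and 4 at an unadjusted p under 0.05, adding Igfbp3 and Igfbp7 (14.6% of all genes). Groups did not overlap for 1 member, which was higher (16.5% of all genes, 7.80% higher and 8.66% lower). Igf1, Igf1r, Igfbp5, Igfbp6 and Igfbp7, 5 of 9, were higher in 3 of 3 replicate numbers, as were 16.9% of all genes, and Igfbp3 was lower in 3 of 3, as were 17.8%. Either direction held for 34.7% of all genes. The median log2 fold change of the 9 members was 0.30, against 0.00 over all tested genes.

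In the libraries numbered 1, untreated and treated alike, Igfbp2 was the highest of its group, whereas Igfbp5 and Igfbp7 were the lowest. Igfbp7 was at 613 and 1103 normalised counts there and Igfbp5 at 53 and 106. Blocking on the number reduced the SE of Igfbp2 from 0.57 to 0.27, of Igfbp5 from 0.49 to 0.28 and of Igfbp7 from 0.48 to 0.26, while the SE of Igfbp6 was 0.27 either way.

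Among the transcripts of the 6 binding proteins, summed to 11336 to 18202 normalised counts in untreated and 14838 to 16927 in treated libraries, Igfbp4 made up 70.1% to 82.1% in untreated and 71.7% to 83.1% in treated SFs. Igfbp2 took 22.0% in untreated replicate 1 and 2.41% to 7.95% in the other 5 libraries. Igfbp7 took 5.41% to 13.7% in untreated and 6.52% to 19.7% in treated SFs. The share of Igfbp6 was 0.626% to 1.27% in untreated and 1.29% to 2.53% in treated SFs, without overlap. Set against 1000 normalised counts of the 6 IGFBPs, Igf1 stood at 31.0, 11.5 and 16.3 in untreated and 33.9, 19.3 and 24.2 in treated replicates 1, 2 and 3, higher in each number and overlapping between groups.

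**Figure D3:**
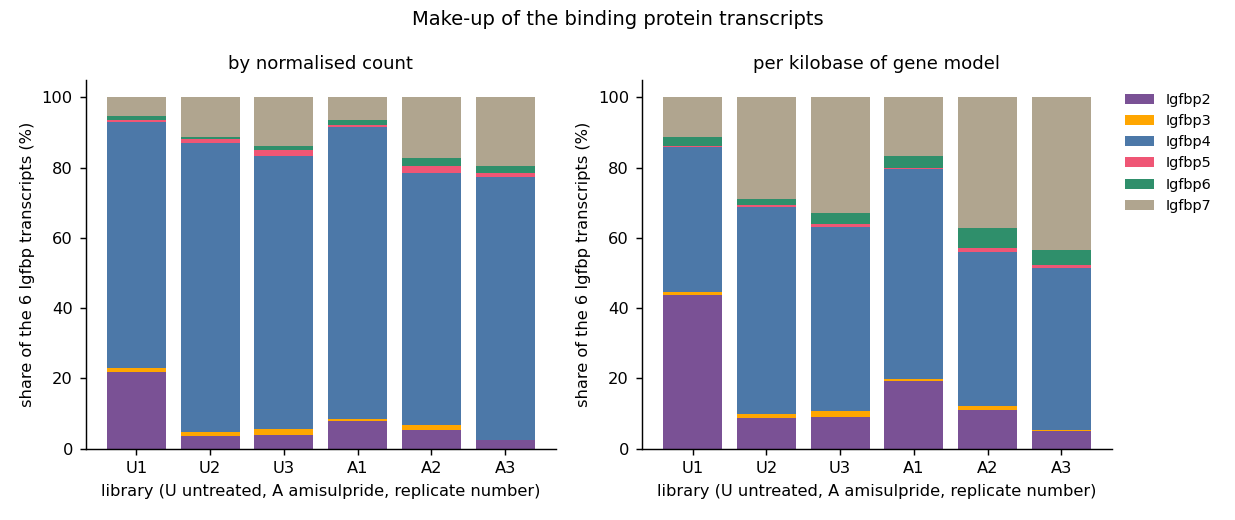
Share of each binding protein in the summed transcripts of the 6 IGFBPs (vertical axis, %) in each library, from normalised counts (left) and from normalised counts per kilobase of gene model (right). Igfbp4 takes 70.1% to 83.1% by normalised count in every library, and Igfbp2 takes 22.0% in untreated replicate 1.

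Levels of different genes were compared per kilobase of gene model, although reads from a 3′ end kit need not increase with gene length. In untreated SFs the order was Igfbp4 (2007 ± 703 normalised counts per kilobase, SD, n = 3), Igfbp7 (958 ± 498), Igfbp2 (764 ± 706), Igf2r (94.2 ± 41.2), Igfbp6 (89.8 ± 12.0), Igfbp3 (48.5 ± 18.5), Igf1 (26.7 ± 9.27), Igfbp5 (25.4 ± 14.0), Igf1r (20.4 ± 6.54) and Igf2 (0.520 ± 0.434). Neighbours whose libraries overlapped were Igfbp7 with Igfbp2, Igf2r with Igfbp6, Igfbp3 with Igf1, Igf1 with Igfbp5 and Igfbp5 with Igf1r. In treated SFs the libraries of Igfbp4 and Igfbp7, of Igfbp7 and Igfbp2, and of Igfbp2 and Igfbp6 overlapped, so these neighbours were not separated. There Igfbp6 (208 ± 54.8 normalised counts per kilobase) stood above Igf2r (86.4 ± 12.0) without overlap, and Igfbp3 (32.7 ± 27.5) stood below Igf1 (44.8 ± 15.4) and Igfbp5 (33.7 ± 14.0) with overlap. By mean normalised count without the length, Igfbp4, Igfbp7 and Igfbp2 also led in both groups, whereas in untreated SFs Igfbp6 was number 9 and Igf1r number 5. The libraries of Igfbp2 and Igf2r overlapped on this scale. In replicate number 3 Igfbp2 was below Igf2r, at 476 against 727 in untreated and 403 against 508 in treated SFs.

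Genes around the family were examined in 6 lists. Beyond the 10 members the lists held 97 genes, of which 81 were tested and 8 passed the study thresholds (9.88%, against 5.70% of all tested genes), 4 higher and 4 lower. None of the 81 had an adjusted limma p under 0.05, 16 had an unadjusted p under 0.05 (10.9% of all genes), and 6 had an adjusted p under 0.05 with the replicate block (2.08% of all genes). With the block 9 passed the study thresholds, against 6.61% of all genes. The median log2 fold change was 0.08, against 0.00 over all tested genes.

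Of the proteases that cut IGFBPs and their inhibitors, 17 of 18 were tested, 3 fell at the study thresholds (3.01% of all genes) and 0 rose (2.69%), with a median log2 fold change of -0.53. Mmp3, the stromelysin that degrades matrix and IGFBP3, had 4166, 5120 and 2530 normalised counts in untreated and 666, 1118 and 1745 in treated SFs, which is -1.79 ± 0.37 (SE) on the log2 scale. The adjusted p of Mmp3 was 0.0764, or 0.0091 with the block. The study had named Mmp3 from these samples, so its fall is not independent evidence. Mmp9, a gelatinase, had 2658, 992 and 2581 in untreated and 638, 230 and 1337 in treated SFs, a log2 difference of -1.70 (adjusted p 0.265, or 0.00371 with the block). The serine protease gene Htra1, whose product carries an IGFBP-type domain, had 111, 161 and 391 in untreated and 61, 71 and 122 in treated SFs, a log2 difference of -1.23 (adjusted p 0.304, or 0.0284 with the block). The groups overlapped for Mmp9 and Htra1, and every treated value was below its counterpart. Mmp9 no longer passed the study thresholds without untreated replicate 1 (-1.46) or amisulpride replicate 2 (-1.04), and Htra1 without untreated replicate 3 (-0.72) or amisulpride replicate 1 (-1.03). Fgfr2 overlaps Htra1 on the other strand over 49550 bases and had 54 to 100 normalised counts in untreated and 108 to 161 in treated SFs. Pappa, the gene of the protease that cuts IGFBP4, had a log2 fold change of -0.33 and did not pass. Its inhibitor Stc1 had 164, 187 and 214 normalised counts in untreated and 67, 25 and 254 in treated SFs, with treated replicate 3 the highest of all. The log2 difference was -1.30 with an unadjusted limma p of 0.0601, which did not pass. With the replicate block the p was 0.00592 and Stc1 passed the study thresholds, at an adjusted p of 0.122.

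Among 12 proteins with an IGFBP-type N-terminal domain, 10 were tested. At the study thresholds 2 rose (2.69% of all genes) and 1, Htra1, fell (3.01%). Htra1 is also counted among the proteases above. Nov, a matricellular protein of the CCN family, had 147, 194 and 65 normalised counts in untreated and 543, 589 and 378 in treated SFs, which did not overlap. Its difference was 2.0 ± 0.38 (SE) on the log2 scale, and the adjusted p was 0.0608, or 0.00102 with the block. Ctgf, a CCN protein that promotes matrix production, had 11976, 9403 and 10616 in untreated and 15297, 19468 and 40012 in treated SFs, also without overlap. Its log2 fold change of 1.11 had an adjusted p of 0.281, or 0.128 with the block, and it was 0.70, short of the study thresholds, without amisulpride replicate 3. Cyr61, another CCN gene, had a log2 fold change of 0.25 and Wisp2 of -0.66, and neither passed. The median of the list was -0.02.

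Of 19 remaining ligands, receptors and adaptors of the insulin and IGF pathway, 10 were tested and 0 passed the study thresholds, with 0 at an unadjusted limma p under 0.05 and a median log2 fold change of 0.04. With the replicate block 0 passed, and 2, Irs1 and Grb10, had an unadjusted limma p under 0.05 (14.6% of all genes). The insulin receptor Insr had 43, 47 and 48 normalised counts in untreated and 40, 33 and 27 in treated SFs, a log2 fold change of -0.47. Grb10, an adaptor that restrains both receptors, was at 646 to 891 in 5 libraries and 3892 in amisulpride replicate 3. These genes, and those of the next lists that did not pass, were chosen after their values were seen.

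The list of PI3K, AKT and FOXO signalling had all 23 genes tested, 0 past the study thresholds and a median of 0.10. Pik3r1, which encodes a regulatory subunit of PI3K, had 101, 93 and 119 normalised counts in untreated and 216, 214 and 181 in treated SFs, without overlap, at a log2 fold change of 0.96 ± 0.25 (SE) and an adjusted p of 0.151. In the FOXO-regulated list 15 of 16 genes were tested and 0 passed, with a median of 0.13. There Gadd45a, a stress-response gene, and Pik3ip1, an inhibitor of PI3K, had log2 fold changes of 0.99 and 0.83 and unadjusted limma p-values of 0.00309 and 0.0189.

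Imprinted growth genes, a list that includes Igf2 and Igf2r, had 13 of 18 tested, with a median of 0.34. At the study thresholds 2 were higher (2.69% of all genes) and 1 was lower (3.01%). Plagl1, a zinc-finger transcription factor of the imprinted gene network, had 16, 25 and 39 normalised counts in untreated and 96, 88 and 172 in treated SFs. Its groups did not overlap, and the log2 difference was 2.13 ± 0.39 (SE), for which the adjusted p was 0.0568, or 0.00171 with the block. The noncoding RNA Meg3 had 1405, 1171 and 1050 in untreated and 5135, 3607 and 1380 in treated SFs, a log2 difference of 1.30 (adjusted p 0.249, or 0.0311 with the block), and 0.89 without amisulpride replicate 1. Mir1906-1 and Gm27300 lie inside Meg3 on the same strand and also have counts, so reads could be split between them. The 1 lower gene, Peg3, had 13, 20 and 17 normalised counts in untreated and 7, 9 and 4 in treated SFs (log2 difference -1.24, adjusted p 0.424). It met the filter only through the untreated libraries, where it is high, so its place among the counted genes is no support. It did not pass without amisulpride replicate 1 or 3 or with a pseudocount of 5. It was not tested with any untreated library left out or with 10 required in all 6 libraries. H19, the noncoding RNA 72622 bases from Igf2, had 93, 232 and 95 normalised counts in untreated and 97, 217 and 247 in treated SFs, a log2 fold change of 0.44 that did not pass.

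**Figure D4:**
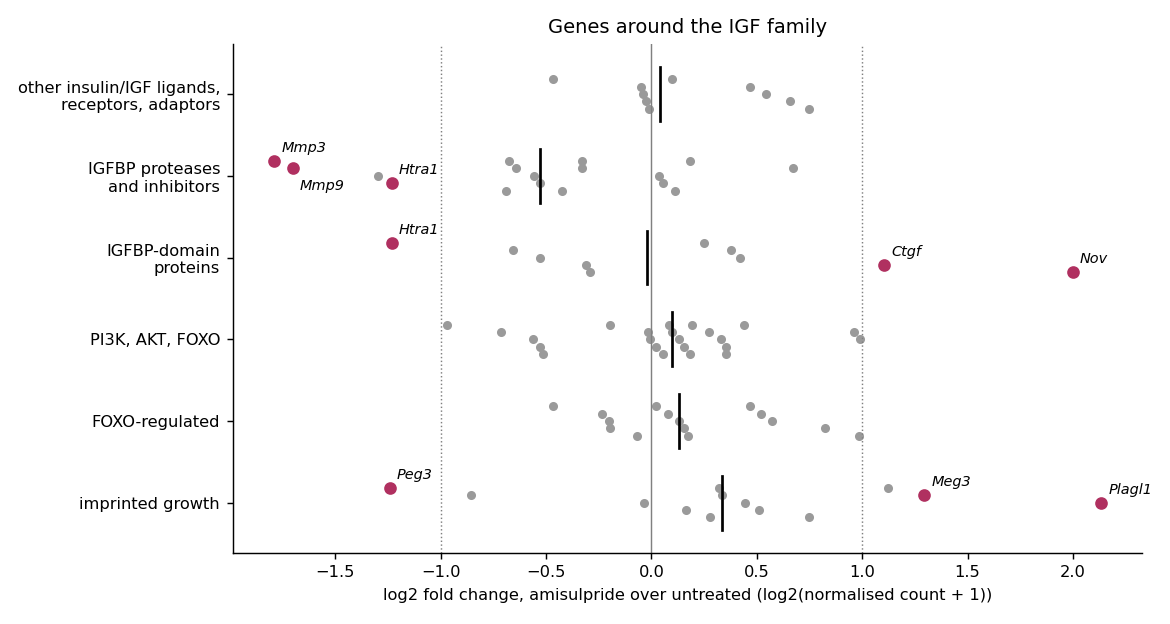
Log2 fold change of amisulpride-treated over untreated SFs (horizontal axis) for the tested genes of 6 lists around the IGF family, spread vertically only to separate the points. Named red points passed the study thresholds, grey points did not, and black bars are list medians, which run from -0.53 for the proteases to 0.34 for the imprinted genes.

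The genes whose profile over the 6 libraries was most like that of Igfbp6 were Fam216a, Tmem107, Wdr36, Pigb and Lingo1, with Pearson correlations of log2 values of 0.98 to 0.99. Lingo1 had 21, 17 and 21 normalised counts in untreated and 29, 60 and 59 in treated SFs, a log2 fold change of 1.22, and was the 1 of these 5 past the study thresholds. Pigb had 8, 6 and 8 in untreated and 11, 16 and 13 in treated SFs. It met the filter only through the treated libraries, where it is high, so its place here is no support. For Igfbp3, the member with the lowest p among those lower, the most alike were Carf, Sirt3, Clec14a, Slirp and Ubald2, each at 0.98 to 0.99, and none of these passed. Sirt3 and Clec14a were at 2 normalised counts in amisulpride replicate 3, under the limit of 5.36 in that library. All genes are measured in the same 6 libraries, which differ in depth and group. The correlations are also the highest of 11035, so they are given as a description.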

How the data were processed

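The authors mapped 3′ end reads (QuantSeq, Ion Proton) to mm10 with TopHat2 and then Bowtie2, counted reads per gene with GenomicRanges and normalised and tested with DESeq through metaseqr; versions were not given in the sources used here. The main deposited columns were handled as a score: the authors scaled the reads of each gene by a library factor and kept whole numbers (normalised counts). A second deposited score divides them by the gene model length. Another 6 columns, 1 for each library on a log scale, and the authors' fold changes and p-values were not used.

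The labels gave 3 untreated and 3 amisulpride libraries, which the methods call biological replicates. Groups were compared with limma 3.58.1 (R 4.3.3) on log2(normalised count + 1), with moderation along the variance trend, over the 12614 genes at 10 or more in at least 3 libraries. Tests were two-sided, with Benjamini-Hochberg adjustment over those 12614 genes. Adding 1 before taking logs makes the differences of low genes look smaller than they are. An exact permutation test with 3 against 3 libraries cannot pass 0.05 and was not used. Depth and floors were estimated from the step that 1 read adds in each library. Where a gene name was carried by several genes (93 names), the most abundant was used.

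Libraries with the same replicate number deviated together (correlation of deviations 0.20 to 0.24, against -0.15 to -0.08 for different numbers). Deviations were taken from the group mean, so positive values for the same number make those for different numbers negative on average. The negative values are thus no separate evidence. Values with the replicate number as a block are also given, though not for every gene. The labels do not say whether libraries of the same number share a mouse or a culture. The block therefore rests on these correlations in the same data. Scripts were tested on simulated data. All 10 members are named, with the list genes past the study thresholds and, for the members with the lowest p in each direction, the 5 protein-coding genes with the most alike profile. The members and lists were chosen with earlier results of these data known. Alternatives covered the pseudocount, filter, scaling, weights, variance trend, block and leaving out each library. Not every list gene is described, and 1 that would have been is not reported here.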

Additional observations from a re-analysis of the deposited data

How the results depend on the processing

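No alternative took Igfbp6 below the study thresholds, and of 126 values of the 9 tested members 117 kept direction and call, 3 gained a call and 6 changed sign. The members past the study thresholds numbered 1 to 2 with 1 library left out: the second was Igf1 without untreated replicate 1, Igfbp7 without amisulpride replicate 1 and Igfbp3 without amisulpride replicate 2. An adjusted p under 0.05 was reached by 1 member, Igfbp6, with the replicate block and with weights per library, and by 0 in all other settings. Igfbp2 changed sign to 0.29 with weights per library, and ranged from -0.76 to 0.43 with 1 library left out, Igfbp5 from -0.0897 to 0.90 and Igf2r from -0.38 to 0.28. The cause was not tested. The replicate block changed no other member's call. The list genes past the study thresholds numbered 7 to 11 with 1 library left out. Over all tested genes, 435 passed the study thresholds at 10 or more in all 6 libraries, where fewer genes were tested, 1313 without a filter, and 563 to 1000 with 1 library left out. The number with an adjusted p under 0.05, 36 in the main comparison, came to 57 both with a pseudocount of 5 and with no filter, 66 with quantile normalisation, 195 with weights, 263 with the replicate block and 0 to 120 with 1 library left out (0 without untreated replicate 2 or 3). Igf2 did not meet the filter on low values.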
